A study of Xenopus laevis with 22 samples.

Results

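At 3 h after Multicilin was switched on in Xenopus laevis ectoderm, caps that also carried a dominant-negative E2f4 had lower levels of 10 centriole genes, of 3 multiciliated-cell transcription factors and of a further set of genes in neither class, while the only symbol that passed the same test upward was e2f4 itself. The comparison rests on 6 of the study's 18 RNA libraries, 3 labelled MCIDAS-HGR plus dnE2F4 and 3 labelled MCIDAS-HGR, and the members were taken by those labels alone. Both groups were animal caps, the ectoderm cut from the top of the embryo at stage 10, with 20 caps in each library. Both carried injected RNA for Multicilin (gene mcidas) fused to the human glucocorticoid receptor, received 20 µM dexamethasone at mid-stage 11 and were collected 3 h later at 22 °C, at stage 13. The dnE2f4 caps carried dnE2F4 RNA in addition. Injected RNA is not limited to a cell type, so neither group models a single kind of ectodermal cell. The labels do not say that replicates came from separate embryos or clutches, so p-values measure the spread between these libraries.

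Multiciliated cells carry many motile cilia, each grown from its own centriole, and they make those centrioles in bulk, largely around structures called deuterosomes. Multicilin, a relative of Geminin, starts this programme by acting with the E2f4 or E2f5 transcription factor and its Dp partner on the promoters of target genes. E2f4 is better known as a factor that holds cell-cycle genes low in resting cells, and a dominant-negative form is meant to take its place in such complexes without activating.

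The dnE2f4 libraries held 17661465, 20369976 and 12760951 estimated fragments and the Multicilin libraries 24253470, 23275828 and 12203285. Fragments were summed by gene symbol, because dnE2f4 replicate 1 had been scored against 35532 targets and the other libraries of 3 h against 24383. That library stood apart: the SD of log2 ratios between it and the other dnE2f4 libraries was 1.17 and 1.19, against 0.44 between those and 0.42 to 0.64 within the Multicilin group. On the target positions shared by all files it still stood apart. The SDs there were 0.90 and 0.92, against 0.43 between the other dnE2f4 libraries and 0.42 to 0.64 within the Multicilin group. Levels below are CPM, the share of a library's counts on a scale that sums to 1e+06, scaled with edgeR, and a change is the log2 fold change of dnE2f4 over Multicilin with its standard error. The main fit held the 12 libraries of 3 and 6 h with a mean per group. Since same-numbered libraries deviated together, a paired fit that adds the replicate number as a block is given beside it. Unless another fit is named, changes and standard errors are those of the unpaired main fit. That includes symbols that passed in the paired fit only. The genome of this frog holds pairs of nearly alike copies, and strand was not kept by the kit, so a symbol's value can mix copies and overlapping genes.

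The labels were checked by the injected RNAs. The e2f4 level was 11392, 7004 and 6680 CPM in the dnE2f4 libraries, against 28.8, 33.7 and 38.0 CPM in the Multicilin libraries, a change of 7.96 ± 0.37. All 3 dnE2f4 libraries were therefore far above all 3 Multicilin libraries, and this symbol sums injected and native RNA. The mcidas targets, which bear another symbol in dnE2f4 replicate 1, together had 1644, 930 and 1382 CPM of the library total in the dnE2f4 libraries, against 1647, 1543 and 1883 CPM in the Multicilin libraries. The groups overlapped, with ratios of 0.998, 0.603 and 0.734 between same-numbered libraries. The 33 symbols called lower had median log2 ratios of -0.95, -1.34 and -0.94 in pairs 1, 2 and 3, so the pair with the lowest mcidas ratio also had the lowest median. The part of the mcidas difference in the changes below was not tested.

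Of 10743 symbols tested, 33 were lower in dnE2f4 caps (0.307% of those tested) and only e2f4 was higher (0.00931%). These calls are by edgeR's quasi-likelihood F test at a Benjamini-Hochberg adjusted p under 0.05. At an unadjusted p under 0.05 there were 575 lower and 287 higher. In the paired fit 254 symbols passed as lower (2.36%) and 52 as higher (0.484%), and all 33 were among the 254. The falls of the 33 ran from 0.65 to 3.12 on the log2 scale, with a median of -1.10, and 23 were at least 2-fold. Of the 33, 10 belong to a list of centriole assembly genes, which held 67 of the 10743 symbols tested. In none of the 20 gene lists used were 15 of the 33 (45.5%), beside 93.3% of all symbols. The lists were drawn up with earlier results of these data known. The count of symbols called lower hung on replicate 2 of each group. Without dnE2f4 replicate 2 or without Multicilin replicate 2 edgeR called none lower (498 and 397 lower at an unadjusted p under 0.05), and the 6 libraries of 3 h fitted alone also gave none (497 at an unadjusted p). It was 49 and 18 without dnE2f4 replicate 1 and 3, and 11 and 91 without Multicilin replicate 1 and 3, while DESeq2 called 187.

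**Figure D1:**
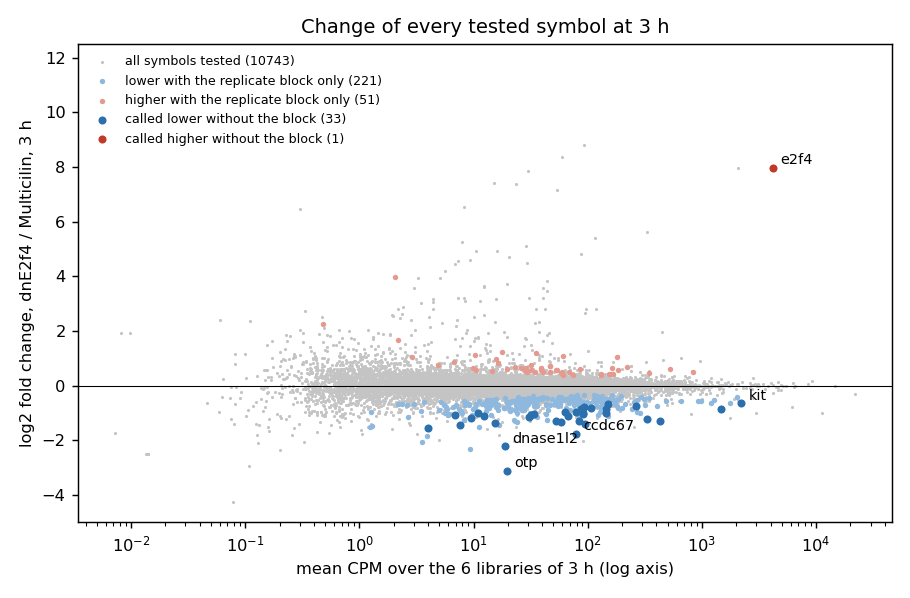
Each point is a gene symbol, with its mean CPM over the 6 libraries of 3 h on a log axis across and its log2 fold change, dnE2f4 over Multicilin, upward. The 33 symbols called lower (dark blue) lie between -3.12 and -0.65, e2f4 (dark red) is at 7.96 and paler points passed in the paired fit only.

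Of the factors that steer the multiciliated fate, foxn4, tp73 and myb were among the lowered genes. The factor foxn4, which works with Foxj1 and Multicilin in these cells, had 316, 170.5 and 251 CPM in dnE2f4 caps, against 612, 596 and 619 CPM in Multicilin caps, a change of -1.31 ± 0.20 (edgeR adjusted p = 0.022). Values for tp73, the p53 relative needed for multiciliated cells in mice, were 45.9, 25.03 and 27.8 CPM in dnE2f4 caps, against 97.0, 88.7 and 63.8 CPM in Multicilin caps (-1.34 ± 0.24, edgeR adjusted p = 0.048). For myb, which acts early in centriole amplification, they were 201, 177 and 218 CPM in dnE2f4 caps, against 321, 359 and 330 CPM in Multicilin caps (-0.76 ± 0.13, edgeR adjusted p = 0.033). None of these groups overlapped.

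Of 31 regulators tested, those 3 passed as lower, beside 0.307% of all symbols. The only member that passed as higher was e2f4, whose RNA was injected. It is also the only upward call among all symbols (0.00931%), so that share is no background for it. The list median was -0.18 beside 0.02 over all symbols. With pairing 9 passed as lower, beside 2.36% of all symbols, and 2 as higher, the injected e2f4 among them, beside 0.484%. On the common targets, the target positions shared by all files, 7 and 2 passed, beside 117 and 22 of 10740 symbols. There myb, rb1 and foxa1 lost the call. The forkhead factor foxj1, which switches on motile cilia genes, had 1322, 1121 and 1673 CPM in dnE2f4 caps and 1993, 2051 and 2366 CPM in Multicilin caps, a change of -0.64 ± 0.15 that passed in the paired fit only. Likewise cdc20b, from the locus that also holds mcidas and ccno, had 19.4, 25.6 and 32.9 CPM in dnE2f4 caps, against 35.4, 77.2 and 74.3 CPM in Multicilin caps. The cyclin-like gene ccno, needed for centriole production, changed by -0.66 ± 0.22 with overlapping groups and passed in the paired fit, as did e2f1 (-1.01 ± 0.37), an activating E2f, and rb1 (-0.47 ± 0.18), the retinoblastoma protein. The ciliary factor rfx2 had 998, 694 and 688 CPM in dnE2f4 caps and 911, 909 and 876 CPM in Multicilin caps, which overlap, and passed in neither fit. Its overlap came from dnE2f4 replicate 1, the library with the other targets. The other dnE2f4 libraries lay below every Multicilin library.

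The largest drop of a centriole gene was that of ccdc67 (deup1), which builds the deuterosome. It had 30.9, 35.3 and 40.7 CPM in dnE2f4 caps, against 103, 146 and 113 CPM in Multicilin caps, a change of -1.76 ± 0.24 (edgeR adjusted p = 0.020). Its partner cep152, which recruits the kinase Plk4, had 205, 175 and 212 CPM in dnE2f4 caps, against 469, 442 and 469 CPM in Multicilin caps (-1.22 ± 0.14, edgeR adjusted p = 0.0100). Both sets of libraries were tight and far apart.

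Further centriole genes that passed were cep76, which limits repeated duplication (-1.42 ± 0.22), rttn, needed for centrioles of full length (-1.11 ± 0.14), tubg1, the gamma-tubulin that nucleates microtubules (-1.06 ± 0.15), poc1a, which stabilises centrioles (-1.02 ± 0.18), the centrin-binding sfi1 (-0.99 ± 0.13), cep135 of the cartwheel (-0.87 ± 0.14), ccp110, which caps the distal end (-0.83 ± 0.14), and cep120, needed for elongation (-0.79 ± 0.12). The list as a whole had 67 tested members, of which 10 passed as lower, beside 0.307% of all symbols, and 0 as higher. Its median was -0.49 beside 0.02 over all symbols, 54 members had a change below 0, which 45.7% of all symbols had, and 39 members had groups that did not overlap with dnE2f4 below, a pattern of 7.11% of all symbols tested. The list was drawn up with earlier results of these data known.

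With pairing 30 of the 67 passed as lower, beside 2.36% of all symbols. On the common targets 22 did, beside 117 of 10740 symbols. The kinase plk4 had 50.7, 43.0 and 51.8 CPM in dnE2f4 caps and 86.6, 104 and 81.5 CPM in Multicilin caps, a change of -0.90 ± 0.20 (adjusted p = 0.12 in edgeR's unpaired fit). The cartwheel proteins stil (-1.12 ± 0.21) and sass6 (-0.67 ± 0.15) also passed only in the paired fit, as did cetn2, the centrin (-0.97 ± 0.18), and the pericentriolar proteins pcnt (-0.98 ± 0.19) and pcm1 (-0.56). On the common targets sass6, cetn2 and pcm1 lost that call, with paired changes of -0.43, -0.59 and -0.46, and dnE2f4 replicate 1 then held 235 CPM of sass6 in place of 139 CPM and 141 CPM of cetn2 in place of 57.1 CPM. Of the members 13 had a change above 0, the highest being cep85l at 0.32, and cenpj, with 170, 102 and 101 CPM in dnE2f4 caps and 169, 181 and 171 CPM in Multicilin caps, passed in neither fit. For cenpj dnE2f4 replicate 1 lay among the Multicilin libraries, while the other dnE2f4 libraries lay below all of them.

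**Figure D2:**
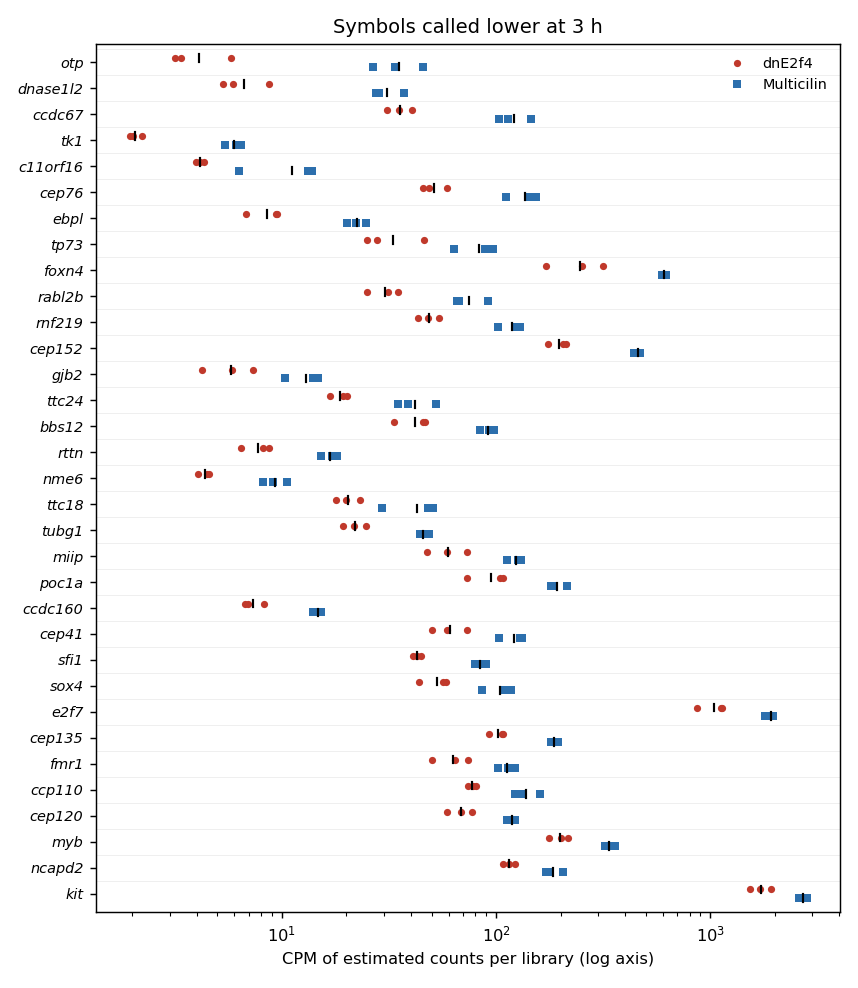
CPM of each library on a log axis for the 33 symbols called lower, with dnE2f4 libraries as red circles above Multicilin libraries as blue squares and a black tick at each mean of 3 libraries. In all 33 rows the red points lie left of the blue ones without overlap, from otp, 8.67-fold lower in dnE2f4, to kit, 1.57-fold lower.

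Among genes of the cilium beyond its centriole, bbs12 passed, a chaperonin-like protein that helps assemble the BBSome, the coat that moves membrane proteins in cilia. It had 46.6, 33.3 and 45.6 CPM in dnE2f4 caps, against 84.1, 97.6 and 93.1 CPM in Multicilin caps (-1.13 ± 0.17, edgeR adjusted p = 0.021). It was the only call among 59 intraflagellar transport and BBSome genes, beside 0.307% of all symbols, with a list median of -0.36, and 29 members did not overlap with dnE2f4 below, beside 7.11% of all. In that list 53 members had a change below 0, which 45.7% of all symbols had. The paired fit called 10 lower, beside 2.36% of all, including ift52, ift122, ift140, bbs1 and bbs4, but on the common targets these 5 lost the call and 2 of the list passed. No member of the axoneme list, the motors, tubulins and scaffolds of the moving cilium, passed among 73 tested in edgeR's unpaired fit. The list median was -0.40, and 36 members did not overlap with dnE2f4 below, beside 7.11% of all. Of the 73 members 70 had a change below 0, beside 45.7% of all symbols. The paired fit called 12 lower, beside 2.36% of all, and 1 on the common targets. The largest of these falls was that of spag17 of the central pair, with 5.82, 4.53 and 4.31 CPM in dnE2f4 caps and 12.8, 16.0 and 6.30 CPM in Multicilin caps. The dynein chain dnai1 did not pass in either fit, with 93.7, 83.0 and 104 CPM in dnE2f4 caps and 121, 137 and 117 CPM in Multicilin caps. Outside the lists, 3 more of the 33 are cilium genes, namely rabl2b, a GTPase at the cilium base (-1.30 ± 0.20), cep41, which aids tubulin glutamylation (-1.005 ± 0.17), and ttc18 (cfap70), an axoneme protein (-1.08 ± 0.19).

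In bulk caps, fewer multiciliated cells and less RNA per cell cannot be told apart. This holds for each of the gene groups above.

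In the lists of DNA replication and of mitosis, which hold classic targets of E2f factors, 2 and 1 genes passed. Most of the replication list lay lower in dnE2f4 caps. The thymidine kinase gene tk1 had 2.21, 2.02 and 1.95 CPM in dnE2f4 caps, against 6.12, 6.44 and 5.44 CPM in Multicilin caps, a change of -1.54 ± 0.21 (edgeR adjusted p = 0.020). The atypical repressor e2f7 had 1126, 869 and 1137 CPM in dnE2f4 caps, against 1962, 1804 and 1971 CPM in Multicilin caps (-0.87 ± 0.13, edgeR adjusted p = 0.021). Those were the 2 calls among 89 genes of replication and the G1/S step, beside 0.307% of all symbols. The list median was -0.19, 64 members had a change below 0, beside 45.7% of all, and 24 did not overlap with dnE2f4 below, beside 7.11% of all. Summed over the common targets the list held 5748 to 6947 CPM in dnE2f4 caps, against 7819 to 8589 CPM in Multicilin caps, which do not overlap.

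The paired fit passed 9 of the 89, all lower, beside 2.36% of all symbols, including the helicase subunit mcm4 (-0.76 ± 0.30), the polymerase subunits pole (-0.75 ± 0.28) and pola1 (-0.56), the maintenance methylase dnmt1 (-0.65 ± 0.24) and the histone chaperone chaf1a (-0.64). On the common targets 4 passed, among them mcm4 and pole but not the other 3. A lost call there did not always mean a smaller fall. For dnmt1 the paired change was -1.13 there, beside -0.67 by symbol, and dnE2f4 replicate 1 held 23.4 CPM in place of 65.3 CPM. The sliding clamp pcna had 73.3, 65.3 and 85.8 CPM in dnE2f4 caps and 68.7, 95.8 and 109 CPM in Multicilin caps, which overlap, and passed in neither. Of 95 genes of mitosis and G2/M, ncapd2, a condensin subunit, passed (-0.69 ± 0.12), beside 0.307% of all symbols. The list median was -0.03. Without overlap, 13 members had dnE2f4 below and 8 had it above, beside 7.11% and 5.05% of all. The paired fit added cdk1 (-0.51 ± 0.21), kif18a, cit and ncaph2, which made 5 lower calls, beside 2.36% of all. Of these ncaph2 alone passed on the common targets, where the list had 2 lower calls. Cyclin A1, ccna1, had 9.08, 4.38 and 6.11 CPM in dnE2f4 caps and 17.01, 21.4 and 21.2 CPM in Multicilin caps. These groups do not overlap, yet the change of -1.61 ± 0.41 passed in neither fit.

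The 2 largest falls among the 33 belonged to no ciliary or cell-cycle list. The homeobox gene otp, known for hypothalamic neurons, had 3.38, 3.15 and 5.78 CPM in dnE2f4 caps, against 26.5, 33.8 and 45.8 CPM in Multicilin caps, 8.67-fold lower (-3.12 ± 0.38, edgeR adjusted p = 0.016). The nuclease gene dnase1l2, expressed in keratinocytes of mammals, had 8.73, 5.32 and 5.94 CPM in dnE2f4 caps, against 37.2, 28.5 and 27.6 CPM in Multicilin caps (-2.22 ± 0.32, edgeR adjusted p = 0.021). In both genes every dnE2f4 library was below every Multicilin library by a wide margin. They were also among the 9 of the 33 that passed on the targets common to all files, where the paired fit called 30 of the 33, all but gjb2, myb and ncapd2. The paired changes of gjb2 and myb there were -0.82 and -0.67, beside -1.19 and -0.76 by symbol. That of ncapd2 was -1.10, beside -0.69, with 43.5 CPM in dnE2f4 replicate 1 in place of 107 CPM.

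Signalling and membrane genes among the 33 were kit, a receptor tyrosine kinase, and gjb2, a gap junction connexin. The first was abundant, with 1924, 1536 and 1714 CPM in dnE2f4 caps against 2817, 2592 and 2718 CPM in Multicilin caps (-0.65 ± 0.12). The second had 4.25, 5.86 and 7.33 CPM in dnE2f4 caps against 14.8, 13.9 and 10.4 CPM in Multicilin caps (-1.17 ± 0.21). Also lower were the transcription factor sox4 (-0.97 ± 0.15), the RNA-binding fmr1 (-0.85 ± 0.14), rnf219, a ubiquitin ligase linked to replication origins in human cells (-1.29 ± 0.19), nme6, a nucleoside diphosphate kinase family gene (-1.10 ± 0.18), ebpl, a relative of a sterol isomerase (-1.38 ± 0.21), and miip (-1.05 ± 0.15). Little is known of ttc24, ccdc160 and c11orf16, which fell by 1.17, 1.01 and 1.44 on the log2 scale.

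Of the symbols that passed in the paired fit only, the 25 largest falls without overlap were taken after their values were seen. Of these 16 were in none of the lists and 5 in the centriole list, and 20 passed on the common targets. Of all 10743 symbols tested, 93.3% were in none of the lists and 67 symbols were in the centriole list. The potassium channel gene kcna4 had 2.21, 3.74 and 3.17 CPM in dnE2f4 caps, against 8.69, 22.7 and 14.9 CPM in Multicilin caps (-2.34 ± 0.43). The pancreatic factor mafa (-2.06 ± 0.46) and the somatostatin receptor sstr5 (-1.84 ± 0.37) followed, both under 8 CPM in every library of 3 h. Next in size were h1f0, a linker histone (-1.46 ± 0.30), fbxo43, an inhibitor of the anaphase-promoting complex (-1.32 ± 0.27), the axoneme gene spag17 (-1.27 ± 0.27), cdc20b (-1.26 ± 0.32), c19orf44 (-1.14 ± 0.22), the centriole gene stil, srpk2, a kinase of splicing factors (-1.11 ± 0.27), and the centriole gene wdr90 (-1.10 ± 0.27). Lower in that order stood brip1, a DNA repair helicase (-1.03 ± 0.20), which lost the call on the common targets, and cdk7, the kinase that activates other cyclin-dependent kinases (-1.004 ± 0.22). For cdk7 the levels were 215, 158 and 200 CPM in dnE2f4 caps, against 367, 399 and 383 CPM in Multicilin caps, with no overlap. In all, 174 of the 254 falls in the paired fit (68.5%) were in none of the lists, beside 93.3% of all symbols. That share depends on what the lists hold and does not separate centriole and cilium genes from others. The unlisted falls include the centrosomal genes cep95, cep112 and cep128.

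Upward calls were fewer. Apart from e2f4 none passed in the unpaired fit. The 9 further symbols with the largest rises without overlap at an unadjusted p under 0.05, which do not pass, were chpf2, znf16, slc22a8, timp2, znf214, aen, nrcam, wfdc5 and gtpbp5, with changes of 3.17 to 5.12 (slc22a8 alone passed in the paired fit). The size of these rises came largely from dnE2f4 replicate 1, the library with the other targets. For chpf2 the levels were 163, 2.12 and 3.34 CPM in dnE2f4 caps and 1.88, 1.66 and 1.21 CPM in Multicilin caps. Without that library the 9 changes were 0.15 to 1.76, and on the targets common to all files -0.13 to 1.19.

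In the paired fit 51 symbols besides e2f4 passed as higher. With e2f4, 35 of the 52 had groups without overlap, dnE2f4 above, as 5.05% of all symbols had. The 52 were called from these same values, so that count is no separate evidence. The genes named here were chosen after their values were seen. Among them was gmnc, a Geminin relative that acts above Multicilin, with 2.39, 3.01 and 4.56 CPM in dnE2f4 caps against 0.530, 1.40 and 1.21 CPM in Multicilin caps (1.67 ± 0.45). The p53 target ccng1 had 347, 197 and 192 CPM in dnE2f4 caps, against 130, 133 and 89.4 CPM in Multicilin caps (1.06 ± 0.34). In both genes the groups did not overlap.

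A growth factor and its receptor were also among these rises. The ligand gene pdgfb had 11.7, 11.5 and 19.2 CPM in dnE2f4 caps, against 5.14, 5.52 and 9.24 CPM in Multicilin caps (1.10 ± 0.51). The receptor gene pdgfra had 28.9, 28.4 and 28.2 CPM in dnE2f4 caps, against 13.4, 18.8 and 21.1 CPM in Multicilin caps (0.69 ± 0.25), but its paired change was -0.46 on the common targets, where dnE2f4 replicate 1 holds 0.500 CPM. The Nodal co-receptor tdgf1 (0.97 ± 0.24), the crest and cartilage factor sox9 (0.86 ± 0.26), the early embryonic factor sall4 (0.75 ± 0.29) and the RNA decay factor zfp36l1 (0.67 ± 0.29) rose as well, each without overlap, and of these tdgf1 alone passed on the common targets. The Notch feedback gene nrarp (0.48 ± 0.19), the epidermal factor tfap2a (0.45 ± 0.26) and the phosphatase dusp1 (0.40 ± 0.16) passed with overlapping groups. On the common targets none of these 3 passed, and tfap2a had a paired change of -0.24 there. Over all symbols on the common targets the paired fit called 22 higher, 15 of them among the 52, and 117 lower, 98 of them among the 254.

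**Figure D3:**
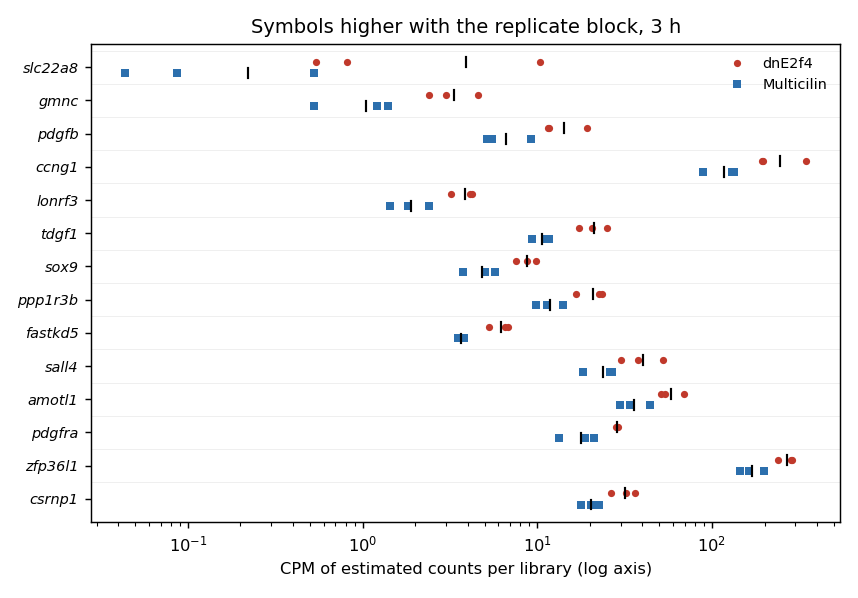
CPM of each library on a log axis for 14 of the 15 largest rises without overlap that passed in the paired fit only, with dnE2f4 libraries as red circles above Multicilin libraries as blue squares and a black tick at each mean of 3 libraries. Red lies right of blue in all 14 rows, and the top one, slc22a8, has a single far red point at 10.4 CPM, dnE2f4 replicate 1.

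Markers of the other ectodermal cell types were called in neither direction in the unpaired fit. Of 35 epidermal and keratin genes, 25 of ionocytes, 15 of goblet cells and 12 of small secretory cells, 0 passed in edgeR's unpaired fit, and the list medians were 0.04, 0.03, -0.22 and 0.11. In the paired fit grhl3, an epidermal barrier factor, and foxa1, of small secretory and goblet cells, passed as lower and tfap2a as higher, and none of these passed on the common targets. That was 1 lower call in each of the epidermal, goblet and small secretory lists, beside 2.36% of all symbols. The epidermal list had 1 higher call, beside 0.484% of all. The ionocyte factor foxi1 had 18.0, 682 and 880 CPM in dnE2f4 caps and 494, 588 and 681 CPM in Multicilin caps. Its low value is again replicate 1, which held 458 CPM on the common targets. Symbols itln1 and itln2, goblet lectins, together had 154, 190 and 138 CPM of the library total in dnE2f4 caps and 141, 200 and 151 CPM in Multicilin caps, which overlap.

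Summed over the common targets, the epidermal list held 27180 to 33292 CPM in dnE2f4 caps, against 34698 to 35387 CPM in Multicilin caps, and the small secretory list 292 to 421 CPM in dnE2f4 caps against 460 to 483 CPM in Multicilin caps. The neural list, with otp as its only call among 22 genes and a median of -0.33, held 3062 to 3908 CPM in dnE2f4 caps against 3982 to 4366 CPM in Multicilin caps. These 3 sums did not overlap, and their part in the falls above was not tested. Sums for the ionocyte list (2082 to 2543 CPM in dnE2f4 caps, 2098 to 2282 CPM in Multicilin caps) and the goblet list (5975 to 8959 CPM in dnE2f4 caps, 7153 to 9269 CPM in Multicilin caps) overlapped. The mesoderm list held 130 to 150 CPM in dnE2f4 caps and 110 to 156 CPM in Multicilin caps, and the endoderm list 226 to 301 CPM in dnE2f4 caps against 193 to 208 CPM in Multicilin caps, which do not overlap. No crest, mesoderm, endoderm or pluripotency gene passed in edgeR's unpaired fit among 12, 16, 7 and 15 tested. The paired fit called sox9, foxh1 and sall4 of these lists and elavl3 of the neural list higher and h1f0 lower. Over all symbols it called 0.484% higher and 2.36% lower. Of the genes just named h1f0 alone kept its call on the common targets. There the paired fit also called 1 other crest gene higher and 2 neural genes lower, otp among them. The pou5f1 targets had 662, 701 and 945 CPM of the library total in dnE2f4 caps and 591, 461 and 662 CPM in Multicilin caps, and sox3 changed by -0.65 ± 0.18 without passing.

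The signalling lists, which do not hold kit, had no call in the unpaired fit. The median was 0.07 over 30 Notch genes and 0.16 over 51 genes of BMP, Wnt, FGF and Hedgehog signalling, with 0 calls each in edgeR's unpaired fit. In the paired fit nrarp passed as higher and id4, a BMP-responsive inhibitor of basic helix-loop-helix factors, as lower (-0.54 ± 0.25), both with overlapping groups and neither on the common targets. Over all symbols the paired fit called 0.484% higher and 2.36% lower. On the common targets the paired fit called 1 other Notch gene higher. The Notch ligand dll1 had 90.8, 202 and 191 CPM in dnE2f4 caps and 107, 123 and 135 CPM in Multicilin caps, which overlap. For dll1 dnE2f4 replicate 1 lay below every Multicilin library, while the other dnE2f4 libraries lay above all of them. Of 38 stress and p53 genes none passed, with a median of 0.05 and sums of 13598 to 14050 CPM in dnE2f4 caps against 12403 to 13477 CPM in Multicilin caps, which do not overlap and whose part in the other changes was not tested. The paired fit called ccng1 and xbp1 higher and fos lower in that list, beside 0.484% and 2.36% of all symbols. Of 12 glucocorticoid response genes none passed (median 0.20), both groups having received dexamethasone. In that list dusp1 passed as higher in the paired fit, beside 0.484% of all symbols. Housekeeping genes had a median of 0.09 over 26.

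**Figure D4:**
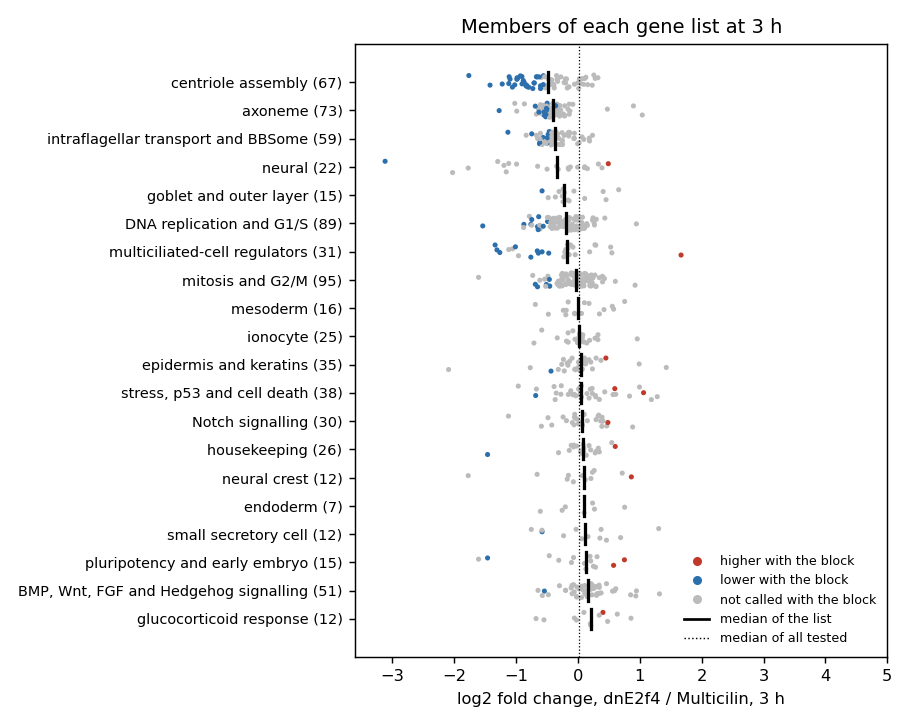
Log2 fold change, dnE2f4 over Multicilin at 3 h, of every tested member of each gene list, with the number tested in brackets, a thick bar at the list median and a dotted line at the median of all symbols, 0.02. Blue and red mark members lower and higher in the paired fit, and the centriole list has the lowest median, -0.49. Beyond the axis lie e2f4 at 7.96 and ctbp2 at 8.37, of which ctbp2 passed in neither the unpaired nor the paired fit.

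The 6 libraries of 6 h were read in the same way. They belong to neither group of 3 h, but they entered the fit that called the 33 and share its estimate of each gene's spread, and the libraries of 3 h alone gave no lower call, so the counts at 6 h are not independent of the choice of the 33. All 33 lowered symbols had a change below 0 at 6 h, which 49.2% of all tested symbols had. Of them 29 passed as lower at 6 h, against 2.88% of all, and 32 had groups without overlap with dnE2f4 below, against 13.3% of all. The median change of the 33 was -1.10 at 3 h and -1.15 at 6 h. The exceptions that did not pass at 6 h were otp, c11orf16, ttc18 and ncapd2, and otp alone had groups that overlapped.

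For otp the levels at 6 h were 2.45, 4.36 and 4.63 CPM in dnE2f4 caps and 3.94, 9.48 and 6.28 CPM in Multicilin caps. The difference of its effects, 2.30 ± 0.52, did not pass (edgeR adjusted p = 0.42). The effect on rttn did differ. It had 8.73, 8.13 and 6.43 CPM in dnE2f4 caps against 18.1, 17.1 and 15.3 CPM in Multicilin caps at 3 h, and 14.1, 13.2 and 14.1 CPM in dnE2f4 caps against 104, 119 and 126 CPM in Multicilin caps at 6 h. Its effect at 6 h minus that at 3 h was -1.97 ± 0.20 (edgeR adjusted p = 0.0072).

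Of the 254 falls in the paired fit 246 had a change below 0 at 6 h, against 49.2% of all symbols. Calls at 6 h are those of the unpaired fit, since no paired contrast was tested at 6 h. They are therefore not like for like with the paired calls at 3 h. In the unpaired fit 117 of the 254 passed as lower at 6 h, against 2.88% of all. The paired fit also held the 6 h libraries, and in the 6 libraries of 3 h alone it called 3 lower and 0 higher. The counts at 6 h are thus not independent of the choice of the 254 and the 52. Of the 52 rises 44 kept their sign at 6 h, where 49.2% of all symbols were below 0. As higher at 6 h passed 6 of the 52, against 0.707% of all, namely e2f4, fastkd5, zfp36l1, tuft1, ptgs2 and efnb2. The groups did not overlap at 6 h, dnE2f4 above, for 17 of the 52, against 9.02% of all. For gmnc the levels at 6 h were 0.652, 0.311 and 0.515 CPM in dnE2f4 caps and 0.816, 0.342 and 0.353 CPM in Multicilin caps, which overlap. The difference of its effects did not pass (-1.69 ± 0.71, edgeR adjusted p = 0.94).

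**Figure D5:**
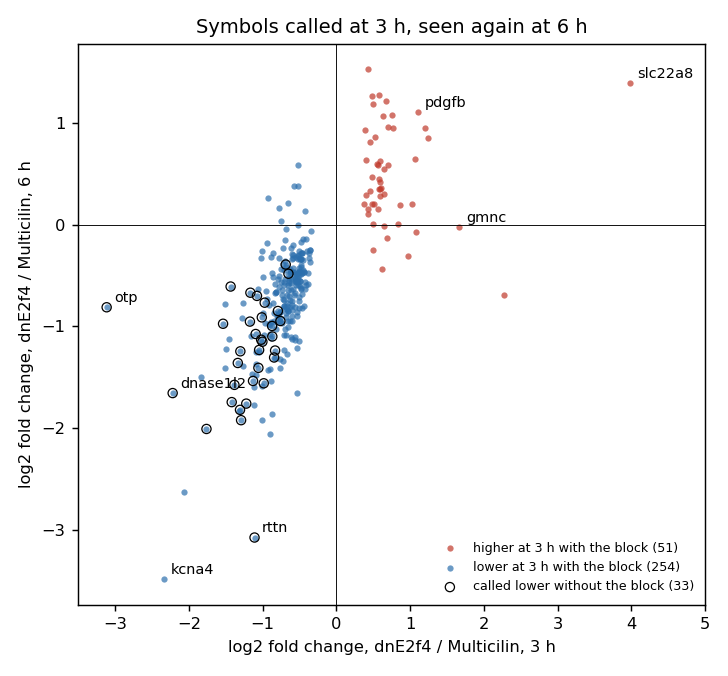
Log2 fold change, dnE2f4 over Multicilin, at 3 h across and at 6 h upward, for the symbols that passed at 3 h in the paired fit, without e2f4. Blue symbols, lower at 3 h, lie mostly below 0 at 6 h (246 of 254, against 49.2% of all symbols). The libraries of 6 h also entered the fits that chose these symbols. All 33 circled ones do, with rttn at -1.11 and -3.08 and otp at -3.12 and -0.81.

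Peaks of GFP-tagged E2f4, from other caps at 6 h, were set beside the 3 h calls. A peak of caps with Multicilin had its centre within 1000 bases of a target start for 26 of the 33 lowered symbols (78.8%), for 162 of the 254 falls in the paired fit (63.8%), for 18 of the 52 rises (34.6%) and for 3600 of all 10743 symbols (33.5%). With peaks of caps without Multicilin the numbers were 25 (75.8%), 165 (65.0%), 23 (44.2%) and 4774 (44.4%). These shares describe position only, since each peak set pools 2 replicates and no test was made.

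Positions are on scaffolds of the JGIv7b assembly. A peak at 963277 to 963487 of scaffold 151039 lay 109 bases from a start of ccdc67, and at cep152 a peak at 2817854 to 2818064 of scaffold 7479 lay 100 bases away. For foxn4 the peak spanned 1834778 to 1834988 of scaffold 44061, 136 bases from a start, and for tp73 6059547 to 6059757 of scaffold 208071, 127 bases away. The cell-cycle gene e2f7 had a peak at 6650530 to 6650740 of scaffold 30470, 168 bases away. The largest fall was different in this respect, as the nearest peak of caps with Multicilin lay 11277 bases from a start of otp and that of caps without Multicilin 274 bases away. For dnase1l2 the nearest peaks of the sets with and without Multicilin were 27387 and 27388 bases away, and for c11orf16 they were 4031 and 75917 bases away. The other 7 of the 10 largest falls in the unpaired fit had a peak of caps with Multicilin within 1000 bases.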

How the data were processed

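Polyadenylated RNA was sequenced from a kit without strand, per the labels. The deposited expected counts (estimated counts) of eXpress, per the file headers, carry no normalization, and the uniquely assigned counts deposited in the same tables served as an alternative. The submitters' processing notes list the tools DESeq, HOMER, eXpress, Bowtie, Bowtie2 and STAR without versions. Peaks came from HOMER on 2 replicates pooled by the authors (FDR threshold 0.001, fold over input threshold 4, per the file headers). Their deposited score is a constant and was not used.

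Estimated counts were summed by lower-case symbol (12434 symbols named in every library), rounded, filtered with filterByExpr, scaled by TMM and tested with edgeR 4.0.16 (R 4.3.3, robust quasi-likelihood F test, Benjamini-Hochberg over all symbols) in 12 libraries with 4 group means. Counts with no symbol were 1.95 to 3.93% of a 3 h library and stayed out, as did 6.42 to 11.5% in symbols not named in every library. The same symbol stood at 82.4% of the 24383 shared target positions in both target sets. Where dnE2f4 replicate 1 is summed over shared targets, fragments on its additional targets are left out. The 9 h libraries were left out of the fit because 2 of them had shown e2f4 opposite to their labels.

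For same-numbered libraries the deviations from group means correlated at 0.35, 0.27 and 0.42 (3 h) and at 0.74, 0.51 and 0.58 (6 h). Between different numbers the range was -0.39 to 0.06 (3 h) and -0.57 to 0.16 (6 h), so the pairing was taken from the labels' numbers. Replicates within each of the 4 groups differed by more than counting noise (chi-square per degree of freedom at least 19.6), so no library was counted as a copy of another. Repeat libraries of the same RNA could differ as much. The planned search for E2f motif words in promoters was not run. The code was tested on simulated data. DESeq2 1.42.0 and the settings named in the closing section were alternatives.

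Members and lists were chosen with earlier results of these data known. Named genes were e2f4 and mcidas, the 25 largest falls and rises that passed with at least 2 CPM and no overlap, filled up to 10 per direction at an unadjusted p under 0.05, a panel, and up to 4 passing members per list or otherwise the 2 most abundant. The result for a further symbol is not reported here.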

Additional observations from a re-analysis of the deposited data

Results flagged for a closer look

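The effect of dnE2f4 on rttn differed between the times. The change was -3.08 ± 0.15 at 6 h and -1.11 ± 0.14 at 3 h, so that the effect at 6 h minus that at 3 h was -1.97 (edgeR adjusted p = 0.0072 over all symbols), with dnE2f4 below Multicilin in all 3 pairs at both times.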

How the results depend on the processing

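The number of symbols called lower (33) and higher (1), and of centriole genes called lower (10), depended on the fit. It was 52 lower with median-of-ratios size factors, 51 without a low-count filter, 58 with a mean of at least 1 CPM (16 centriole genes), 61 with 16 libraries that include 9 h, and 187 lower, 14 higher and 29 centriole genes with DESeq2. The 6 libraries alone gave 0 lower and 0 centriole genes (1 higher), all 18 libraries as labelled 1 lower, 0 higher and 0 centriole genes, uniquely assigned counts 14 and 6, and common targets 12 and 2. The paired fit, with the replicate block, gave 254 lower, 52 higher and 30 centriole genes, in the 6 libraries alone 3, 0 and 1. All 34 unpaired calls also passed with this pairing. Added after seeing the data, the block on common targets gave 117, 22 and 22, and without replicate 1 of both groups 464, 85 and 37. Leaving out each replicate in turn gave 0 to 91 lower, 1 higher each time and 0 to 17 centriole genes. Library size alone left 27 lower and 11 centriole genes. Peaks were near 75.8% of the 33 and 31.0% of all symbols within 500 bases, and 90.9% and 39.8% within 5000 bases.

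Changes of sign arose in named symbols that never passed in the unpaired fit, and the cause was not tested. On common targets the changes were 0.0058 for eef1a1, 0.20 for foxi1, -0.13 for gtpbp5, -0.039 for hsp90b1 and -0.088 for tubb4b. With the replicate block there they were 0.011 for eef1a1, 0.16 for foxi1, -0.39 for gtpbp5, -0.049 for hsp90b1, -0.012 for lin28a, -0.46 for pdgfra and -0.21 for tubb4b. With the block hes5 was at -0.32, and at -0.37 in the 6 libraries alone. With the block and without replicate 1 of both groups foxi1 was at 0.27, pcsk1 at 0.015, rfx3 at -0.19 and tubb4b at -0.48. With uniquely assigned counts hsp90b1 was at -0.14, myc at -0.10 and tal1 at 1.66, and with library size alone id2 was at 0.017. Leaving out each replicate in turn gave -0.028 to 0.38 for a2m, -0.18 to 0.010 for adam10, -0.028 to 0.20 for atp6v1a, -0.65 to 0.037 for eef1a1, -0.77 to 0.40 for foxi1, -0.19 to 0.91 for hes5, -0.016 to 0.067 for hsp90b1, -0.00163 to 0.063 for hspa8, -0.16 to 0.15 for id2, -0.13 to 0.36 for id3, -0.12 to 0.024 for krt8, -0.28 to 0.88 for rfx3 and -0.62 to 1.34 for tubb4b. Estimated counts do not show how near-identical copies split their fragments.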

Other observations

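Outside the rule for named genes, pou2f3, a POU factor of sensory and secretory epithelial cells, was the other symbol whose effect differed between the times. It had 44.1, 35.9 and 44.1 CPM in dnE2f4 caps and 56.5, 54.9 and 52.6 CPM in Multicilin caps at 3 h, a change of -0.40 ± 0.17 that did not pass. At 6 h it had 60.6, 53.3 and 78.1 CPM in dnE2f4 caps against 21.4, 17.5 and 24.7 CPM in Multicilin caps, a rise of 1.59 ± 0.17. The difference of the effects was 2.00 ± 0.24 (edgeR adjusted p = 0.020), and no groups overlapped at either time.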
